A study of Homo sapiens with 18 samples.

Results

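HNRNPK and the 4 genes of its poly(C)-binding family, PCBP1, PCBP2, PCBP3 and PCBP4, were described across all 18 RNA-seq libraries of a colorectal cancer cell line that carried an hnRNPK construct or a negative control. The 5 genes were taken by their symbols, and each had 1 entry among the 31004 genes of the count table and the 30879 genes of the FPKM table. FPKM counts fragments relative to gene length and to the mapped fragments of the library, and it allows levels of genes of different length to be set side by side. CPM, the read count scaled to library size with TMM factors, was used to compare libraries for 1 gene at a time.

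HCT116 is an established human colorectal carcinoma line. The cells carried 1 of 3 backgrounds, namely an empty control (Ctrl), overexpression of the lncRNA CRLM1, or an antisense overexpression control (Antisense). The labels say only Antisense, and the paper describes antisense overexpression as a control for CRLM1 overexpression. In each background a negative control (NC) or an hnRNPK overexpression construct was added, which gave the 6 groups Ctrl_NC, Ctrl_hnRNPK, CRLM1_NC, CRLM1_hnRNPK, Antisense_NC and Antisense_hnRNPK with 3 libraries each. The study asked how CRLM1 and hnRNPK together change gene expression. CRLM1 was expressed from a lentiviral vector with GFP and puromycin resistance, so the CRLM1 background was a selected cell pool and not native expression. The sources differ on the hnRNPK construct, since the sample protocol describes a full cDNA in pTSB and the methods of the study a fragment amplified from HCT116 genomic DNA in pCDNA3.0. Reads of the construct and of the endogenous gene fall in the same HNRNPK count and cannot be told apart. The replicates were numbered libraries, and no label said whether they came from separate cultures, so each p-value measures the spread between libraries, which may be technical.

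The 5 proteins are built around KH domains, which in this family grip short runs of cytosine in single-stranded RNA or DNA. hnRNPK works in the nucleus and cytoplasm in transcription, splicing and translation, PCBP1 and PCBP2 do similar work in mRNA stability and also deliver iron to ferritin and other proteins, and PCBP4 is a less studied member of the family. PCBP1 is an intronless gene that arose by retrotransposition of a processed PCBP2 transcript, whereas PCBP3 is mostly known from brain and other restricted tissues.

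The coding sequences show how closely the members are related, which matters because the reads had to be assigned to 1 of them. In the Gencode release 44 transcripts, PCBP1 and PCBP2 shared 83.3% of their aligned coding bases. PCBP1 shared 72.7% with PCBP3 and 67.7% with PCBP4. PCBP2 and PCBP3 shared 74.3%, PCBP3 and PCBP4 70.5%, and HNRNPK between 50.4% and 54.1% with each PCBP gene. The coding stretch below (60 bases) was chosen because PCBP2, PCBP3 and PCBP4 together differ least from PCBP1 there. Its high identity among the PCBP genes follows from that choice. It covers coding bases 373 to 432 in PCBP1 and PCBP2, 469 to 528 in PCBP3 and 385 to 444 in PCBP4. Capitals mark the bases that differ from PCBP1.
PCBP1: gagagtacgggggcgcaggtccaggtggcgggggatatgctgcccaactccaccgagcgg
PCBP2: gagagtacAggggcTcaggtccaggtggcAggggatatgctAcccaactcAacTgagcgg
PCBP3: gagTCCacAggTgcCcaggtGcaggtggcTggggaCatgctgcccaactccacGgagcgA
PCBP4: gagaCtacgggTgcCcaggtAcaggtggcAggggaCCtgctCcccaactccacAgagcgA
In this stretch 54 bases of PCBP2, 49 of PCBP3 and 50 of PCBP4 were identical to PCBP1, and the best match anywhere in the HNRNPK coding sequence had 30. At the read length of 151 nt, no window of a PCBP transcript came within 4 mismatches of another member, and the closest pair, PCBP1 and PCBP2, differed at 17 positions. For HNRNPK, 537 of its 2739 windows (19.6%) lay within 4 mismatches of a processed copy, mainly HNRNPKP4 with 505 windows. None of those windows was identical to a copy, and the HNRNPKP1 and HNRNPKP4 entries of the count table held at most 4 counts in any library.

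On GRCh38, HNRNPK lies at chr9:83968083-83980631 on the minus strand with 17 exons in its canonical transcript. PCBP1 lies at chr2:70087477-70089203 on the plus strand and has 1 exon. PCBP2 is at chr12:53452102-53481162 (plus strand, 15 exons), PCBP3 at chr21:45643694-45942454 (plus strand, 18 exons) and PCBP4 at chr3:51957454-51974016 (minus strand, 14 exons). Just upstream of their start sites PCBP1 and PCBP2 also share sequence, with 48 of 56 aligned bases identical. These bases are printed with the shared ones in capitals, because PCBP1 and PCBP2 are the closest pair of the family. With all libraries as counted, all PCBP genes had fold changes of the same sign in all 3 comparisons of constructs below. A link of those fold changes to this sequence was not tested.
PCBP1, chr2:70087421-70087476, plus strand: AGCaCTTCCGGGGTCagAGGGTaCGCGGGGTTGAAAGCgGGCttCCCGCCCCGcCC
PCBP2, chr12:53452041-53452097, plus strand: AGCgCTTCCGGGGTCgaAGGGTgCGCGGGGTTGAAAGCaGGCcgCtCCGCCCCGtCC
The element CCCTCCC, a pyrimidine-rich run of the kind hnRNPK is known to bind, was searched on both strands in the 250 bases before each annotated start. It occurred in 24.7% of all 35116 such windows, in both HNRNPK windows and in 2 of 3 PCBP4 windows, which overlap and hold the same sites, and these letters were not found in the PCBP1 or PCBP2 window. No window of PCBP3 was searched. The longer run CCCCTCCCC, which contains the first element, occurred in 7.41% of the windows and in the same HNRNPK and PCBP4 windows.

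Depth was even, from 19732681 to 27039520 counts per library. The epithelial markers EPCAM, KRT8, KRT18, KRT19 and CDH1 were expressed in every library, while the intestinal marker VIL1 stayed at or below 0.787 CPM and PTPRC, COL1A2 and PECAM1 at or below 2 counts. Of the other markers of non-epithelial cells, VWF reached at most 10 counts and the fibroblast gene COL1A1 11.2 to 32.3 CPM. The third libraries of Ctrl_hnRNPK and CRLM1_hnRNPK stood apart from their groups. Over 12963 genes, the third Ctrl_hnRNPK library correlated at 0.992 to 0.993 with the Ctrl_NC libraries and at 0.954 to 0.960 with its own group. For the third CRLM1_hnRNPK library the values were 0.987 with CRLM1_NC and 0.946 to 0.953 with its own group. The study left out both libraries, and the tests of the construct are given with and without them.

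HNRNPK itself was higher with the hnRNPK construct in every background, by a modest margin. In Ctrl_NC it measured 106.34, 107.98 and 110.51 FPKM, against 153.11, 166.12 and 110.68 FPKM in Ctrl_hnRNPK. The third Ctrl_hnRNPK library was therefore at the level of the negative controls, and the other 2 were clearly above them. In CRLM1_NC the values were 109.87, 108.27 and 109.77 FPKM, against 171.08, 182.72 and 125.43 FPKM in CRLM1_hnRNPK. In Antisense_NC they were 113.44, 113.93 and 109.95 FPKM, against 164.58, 174.29 and 172.45 FPKM in Antisense_hnRNPK. No hnRNPK library overlapped the negative controls of its own background in either unit, though by FPKM this rests in Ctrl on 110.68 against 110.51. Antisense was the background in which all 3 hnRNPK libraries lay close together. The share of all genes that separated in the same way is not given here, for HNRNPK or for the members below.

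The mean CPM of HNRNPK was 1.26 times that of the negative controls in Ctrl, 1.44 times in CRLM1 and 1.28 times in Antisense. By FPKM the means were 108 in Ctrl_NC and 143 in Ctrl_hnRNPK, 109 and 160 in CRLM1, and 112 and 170 in Antisense. On that scale the rise was largest in Antisense, so its size and the order of the backgrounds depend on the scaling. The ratios that follow are of CPM. In Ctrl the first 2 libraries stood at 1.36 times and the third at 1.04 times the control mean. In CRLM1 the first 2 stood at 1.53 times and the third at 1.27 times. In bulk libraries, fewer cells with the construct and less construct RNA per cell cannot be told apart.

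Tested with edgeR (quasi-likelihood), with p-values adjusted by Benjamini-Hochberg across every gene in the fit, the log2 fold change of HNRNPK was 0.29 ± 0.174 (SE, adjusted p = 0.362) in Ctrl and 0.56 ± 0.162 (adjusted p = 0.533) in CRLM1. Neither passed the threshold of 0.05. Without the third hnRNPK library it rose by 0.44 (adjusted p = 9.9e-07) in Ctrl and by 0.65 (adjusted p = 2.0e-12) in CRLM1. In Antisense, with all libraries, HNRNPK rose by 0.35 ± 0.0744 (adjusted p = 8.4e-04), but the direction turned to -0.23 (adjusted p = 0.038) when a smooth trend of counts on exonic GC content and length was removed.

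**Figure D1:**
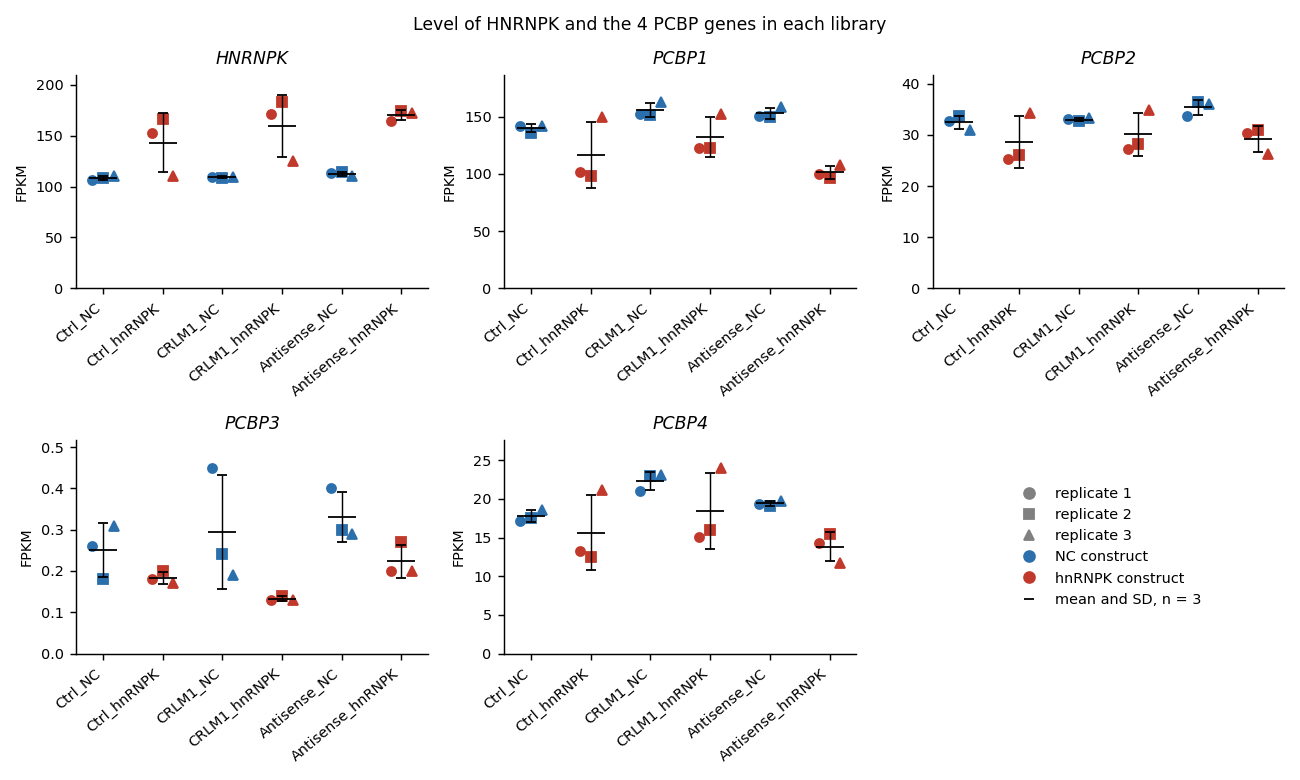
FPKM of the 5 genes in each of the 18 libraries by group, with NC libraries in blue, hnRNPK libraries in red, and the mean and SD of 3 libraries as black lines. HNRNPK is higher with the hnRNPK construct, the third hnRNPK libraries (triangles) of Ctrl and CRLM1 sit near the NC level for most genes, and PCBP3 stays at or below 0.45 FPKM throughout.

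The order at the top of the family differed between the constructs. PCBP1 was the most abundant member in all 9 negative-control libraries and HNRNPK the second. HNRNPK took the first place in 7 of the 9 hnRNPK libraries, and the 2 exceptions were the third libraries of Ctrl and CRLM1. By FPKM, PCBP2, PCBP4 and PCBP3 followed in that order in all 18 libraries. RP11-793H13.8, a lncRNA that overlaps PCBP2 on the same strand, held 5696 to 9991 counts, against 2328 to 3814 for PCBP2. How many reads they share was not tested. The place of PCBP2, the summed FPKM and the ratios to PCBP2 below carry that limit. The ranges of PCBP1 and HNRNPK did not overlap within any negative-control group, nor did those of PCBP2 and PCBP4 or of PCBP4 and PCBP3. In Ctrl_hnRNPK and CRLM1_hnRNPK the ranges of HNRNPK and PCBP1 did overlap, so their order there is within the spread of the libraries.

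Per kilobase of all annotated exons PCBP1 was first in all 18 libraries, so the exchange of first place depends on the length used for HNRNPK. By that length PCBP2, PCBP4 and PCBP3 followed in that order in 15 libraries. PCBP4 stood above PCBP2 in CRLM1_NC replicates 2 and 3 and in CRLM1_hnRNPK replicate 3. Per kilobase of the canonical transcript the order was that of the FPKM values in all 18, a comparison added after the values were seen.

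HNRNPK made up 36.2% ± 0.491 (SD, n = 3) of the summed FPKM of the 5 genes in Ctrl_NC, 34.1% ± 0.667 in CRLM1_NC and 35.1% ± 1.03 in Antisense_NC. With the construct it made up 47.3% ± 10.7 in Ctrl, 46.8% ± 8.35 in CRLM1 and 54.1% ± 0.804 in Antisense. The third Ctrl_hnRNPK library, at 35.0%, fell within the range of 33.4% to 36.5% of the negative controls, and the third CRLM1_hnRNPK library, at 37.2%, just above it. The sum ran from 293.67 to 349.42 FPKM over all libraries. By CPM per kilobase of the canonical transcript it ran more widely, from 331 to 529, with a mean of 411 in Antisense_NC and 344 in Antisense_hnRNPK.

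**Figure D2:**
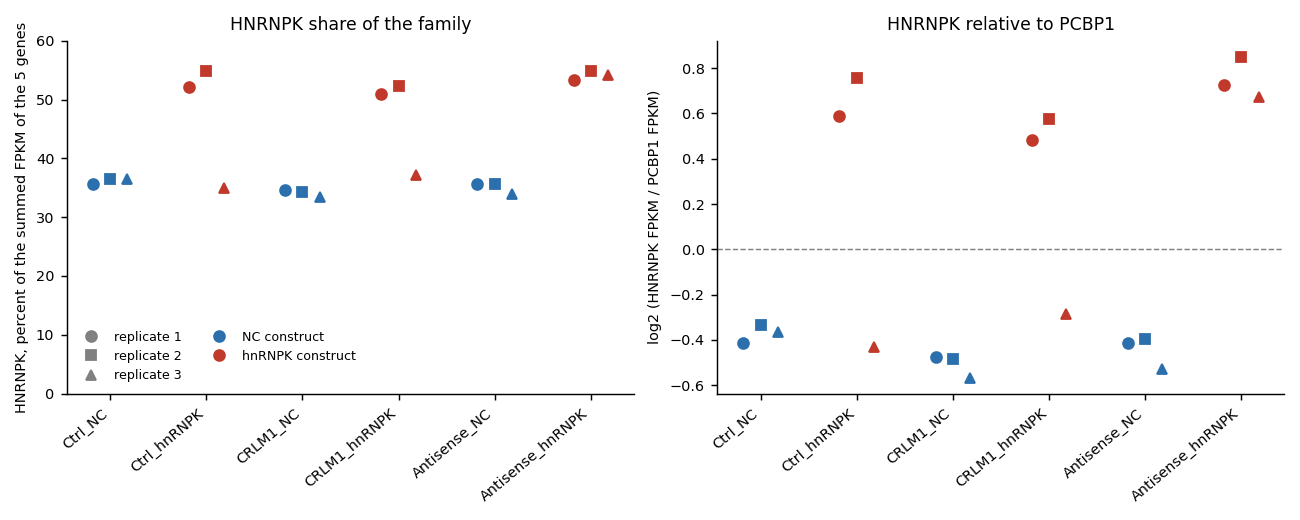
Left, HNRNPK as a percent of the summed FPKM of the 5 genes. Right, log2 of the ratio of HNRNPK to PCBP1 FPKM, where the dashed line marks equal FPKM; symbols are replicates and colours constructs, and 7 of 9 hnRNPK libraries lie above the line while all 9 NC libraries and the third Ctrl and CRLM1 hnRNPK libraries lie below it.

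The ratio of 2 members within 1 library does not depend on how libraries are scaled. HNRNPK stood at 0.752, 0.793 and 0.777 times the FPKM of PCBP1 in Ctrl_NC and at 1.5, 1.69 and 0.741 times in Ctrl_hnRNPK. In CRLM1 the ratios were 0.720, 0.715 and 0.675 against 1.40, 1.49 and 0.821. In Antisense they were 0.752, 0.760 and 0.694 against 1.65, 1.80 and 1.60. The groups overlapped in Ctrl only, through the third library.

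The mean log2 ratio of HNRNPK to PCBP1 was higher with the construct by 0.67 in Ctrl, 0.77 in CRLM1 and 1.19 in Antisense. The exact two-sided permutation p was 0.4 in Ctrl and 0.1 in CRLM1 and Antisense, and 0.1 is the smallest p that 3 libraries against 3 allow. In the third library alone the difference was -0.06 in Ctrl and 0.22 in CRLM1, against 1.04 in the first 2 libraries of either background. Against PCBP2 the log2 difference was 0.58 in Ctrl, 0.67 in CRLM1 and 0.88 in Antisense, and against PCBP4 0.61, 0.84 and 1.10. By contrast the log2 ratio of PCBP1 to PCBP2 moved by -0.10, -0.10 and -0.31. Each is smaller in size than the differences of HNRNPK from PCBP1, PCBP2 and PCBP4 in the same background. These ratios are of counts as deposited. With the GC and length trend removed, HNRNPK stood at -0.23 and PCBP4 at -0.17 in Antisense, and at -0.07 and 0.02 in Ctrl, so the higher level of HNRNPK relative to PCBP4 was not seen there, and in Antisense PCBP1 stood at -0.55. Over the 12 ratio tests no Benjamini-Hochberg adjusted p was below 0.171.

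PCBP1, the most abundant paralog in the control cells, was lower with the construct in Antisense. It measured 150.91, 149.91 and 158.42 FPKM in Antisense_NC and 99.58, 96.66 and 108.02 FPKM in Antisense_hnRNPK. All 3 hnRNPK libraries lay below all 3 controls, in a comparison where 30.5% of all genes passed as lower. In Ctrl it measured 141.47, 136.15 and 142.22 FPKM in Ctrl_NC against 101.82, 98.36 and 149.45 FPKM in Ctrl_hnRNPK. In CRLM1 it measured 152.53, 151.45 and 162.52 FPKM against 122.27, 122.42 and 152.7 FPKM. In both the first 2 hnRNPK libraries lay below all controls, and by CPM the third lay above all of them.

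The log2 fold change of PCBP1 was -0.84 ± 0.083 (SE, edgeR adjusted p = 1.1e-06) in Antisense. It was -0.35 (adjusted p = 0.370) in Ctrl and -0.20 (adjusted p = 0.666) in CRLM1. Without the third hnRNPK library PCBP1 fell by 0.60 (adjusted p = 1.6e-07) in Ctrl and by 0.39 (adjusted p = 5.2e-08) in CRLM1.

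PCBP2, which shares most of its sequence with PCBP1, was also lower with the construct in Antisense. It measured 33.77, 36.35 and 36.03 FPKM in Antisense_NC and 30.32, 30.9 and 26.24 FPKM in Antisense_hnRNPK. The groups did not overlap, and PCBP2 fell by 0.53 ± 0.0792 on the log2 scale (edgeR adjusted p = 4.5e-05), where 30.5% of all genes fell. In Ctrl the values were 32.73, 33.61 and 30.97 FPKM against 25.3, 26.08 and 34.37 FPKM. In CRLM1 they were 33.03, 32.71 and 33.26 FPKM against 27.31, 28.16 and 34.93 FPKM. Again only the third hnRNPK library kept the groups from separating, and the log2 fold change was -0.28 (adjusted p = 0.404) in Ctrl and -0.10 (adjusted p = 0.830) in CRLM1. Without it PCBP2 fell by 0.45 (adjusted p = 1.2e-05) and by 0.30 (adjusted p = 2.3e-05).

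PCBP4, at a lower level, was likewise lower in Antisense. It measured 19.38, 19.13 and 19.76 FPKM in Antisense_NC and 14.26, 15.47 and 11.74 FPKM in Antisense_hnRNPK. The groups did not overlap, and PCBP4 fell by 0.74 ± 0.092 (edgeR adjusted p = 8.0e-06), where 30.5% of all genes fell. In Ctrl it measured 17.21, 17.54 and 18.6 FPKM against 13.26, 12.45 and 21.22 FPKM. In CRLM1 it measured 20.97, 22.95 and 23.1 FPKM against 15.14, 15.98 and 24.04 FPKM. The third hnRNPK library was the highest of its 6 in both backgrounds, and the log2 fold change was -0.27 (adjusted p = 0.481) in Ctrl and -0.24 (adjusted p = 0.690) in CRLM1. Without the third library PCBP4 fell by 0.58 (adjusted p = 1.3e-05) and by 0.57 (adjusted p = 6.4e-08). With the GC and length trend removed, its value in Antisense was -0.17 (adjusted p = 0.113).

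PCBP3 was near the limit of detection. Its counts were 17, 16 and 25 in Ctrl_NC and 14, 16 and 12 in Ctrl_hnRNPK. They were 35, 18 and 13 in CRLM1_NC against 9, 9 and 11 in CRLM1_hnRNPK. They were 29, 22 and 18 in Antisense_NC against 14, 21 and 14 in Antisense_hnRNPK. By CPM the groups separated in CRLM1 and in Antisense, with every hnRNPK library lower, and overlapped in Ctrl. The log2 fold change was -0.81 ± 0.337 (edgeR adjusted p = 0.047) in Antisense, -1.14 (adjusted p = 0.533) in CRLM1 and -0.55 (adjusted p = 0.397) in Ctrl. The call in Antisense was lost in 11 of 13 alternatives. Among them were the edgeR fits without the third Antisense_hnRNPK library (adjusted p = 0.086) and with the replicate number as a block (adjusted p = 0.079).

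With all libraries, 0 of the 5 members passed in Ctrl and 0 in CRLM1, where 0% of all genes passed in either direction. At an unadjusted p under 0.05 edgeR counted 0 members and 2246 of 14607 genes in Ctrl, and 2 members, HNRNPK and PCBP3, and 1332 of 14394 genes in CRLM1. DESeq2 called 2 genes in Ctrl and 8 in CRLM1, none of them a member. In Antisense 1 member rose and 4 fell, where 33.4% of the 14501 genes rose and 30.5% fell. That is 4850 higher and 4418 lower genes, against 5570 higher and 2893 lower by limma on FPKM with a pseudocount of 0.1, where the median of all genes lay at 0.23. Without the third library 1 member rose and 3 fell in Ctrl, where 29.6% of genes rose and 29.9% fell. In CRLM1 without it, 1 rose and 4 fell, where 29.5% rose and 29.1% fell. The members' counts are to be read against these shares, and the call of PCBP3 in Antisense was lost in 11 of 13 alternatives.

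**Figure D3:**
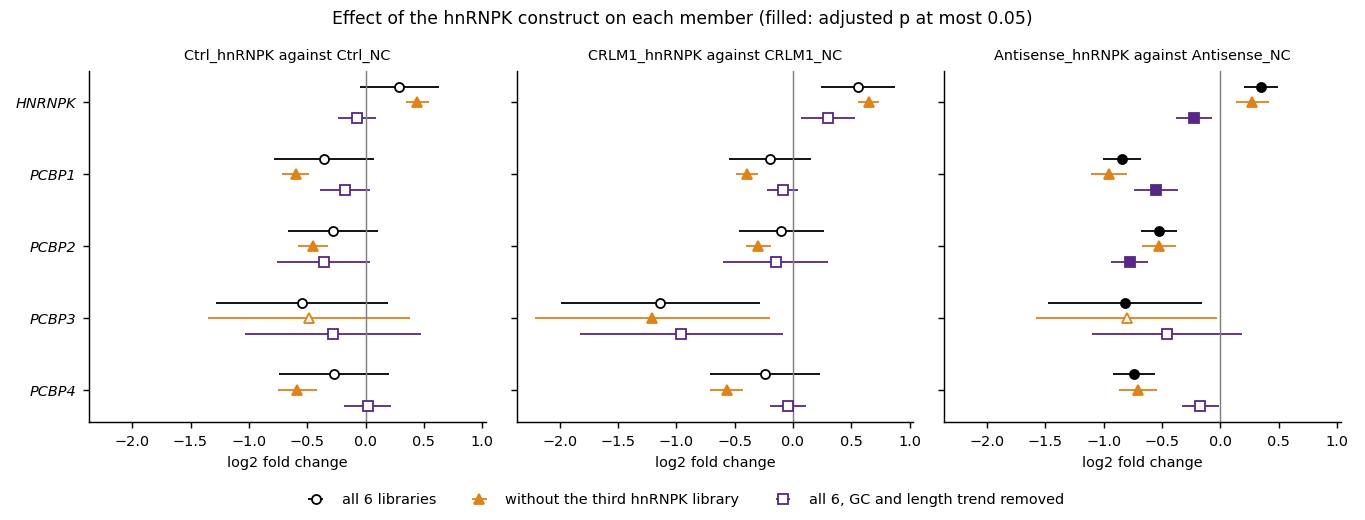
Log2 fold change of each member with its 95% confidence interval in the 3 comparisons of the hnRNPK construct with the negative control, for all 6 libraries (black circles), without the third hnRNPK library (orange triangles) and with the GC and length trend removed (purple squares). Filled symbols have an adjusted p of at most 0.05; the PCBP genes lie left of 0 except PCBP4 in Ctrl with the trend removed, and HNRNPK lies right of 0 except in Ctrl and Antisense with the trend removed.

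The construct's effect was compared between backgrounds in fits with an interaction term. With all libraries, no member passed in any of the 3 comparisons of effects as counted. The largest member value was that of PCBP1, whose effect was 0.63 ± 0.213 higher in CRLM1 than in Antisense (edgeR adjusted p = 0.126), where 1.12% of genes passed. For HNRNPK this difference was 0.20 (adjusted p = 0.562). Both were called with the GC and length trend removed, where 12.5% of genes passed, HNRNPK at 0.53 (adjusted p = 0.029) and PCBP1 at 0.47 (adjusted p = 0.026). Between CRLM1 and Ctrl the difference was 0.24 for HNRNPK (adjusted p = 1.0) and 0.13 for PCBP1 (adjusted p = 1.0), and between Antisense and Ctrl it was 0.03 for HNRNPK (adjusted p = 0.956) and -0.51 for PCBP1 (adjusted p = 0.350). In both of these comparisons edgeR called 0% of the genes, with 221 at an unadjusted p under 0.05 for CRLM1 against Ctrl and 2179 for Antisense against Ctrl, and DESeq2 called 0 and 271. Of the members, 0 reached an unadjusted p under 0.05 in the first, 1 in the second and 1 in the comparison of CRLM1 with Antisense, and DESeq2 called none of them.

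Without the third libraries, the effect on HNRNPK was higher in CRLM1 than in Antisense by 0.33 (edgeR adjusted p = 0.0039), and that on PCBP1 by 0.52 (adjusted p = 7.5e-05), where 26.5% of genes passed. The effect on PCBP1 was lower in Antisense than in Ctrl by 0.32 (adjusted p = 0.029), where 16% of genes passed. Between CRLM1 and Ctrl, where 3.45% passed, HNRNPK differed by 0.23 (adjusted p = 0.070) and PCBP1 by 0.23 (adjusted p = 0.087).

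Among negative-control libraries the calls depended on the scaling. In CRLM1_NC against Ctrl_NC, where 34.3% of genes passed, PCBP4 alone among the members did, with 70.9 ± 3.47 against 58.7 ± 2.33 CPM (SD, n = 3) and a log2 fold change of 0.25 (edgeR adjusted p = 2.6e-04). Its call was kept in 14 of 15 alternatives and lost in 1. PCBP1 stood at 0.08 (adjusted p = 0.054). HNRNPK stood at -0.06 ± 0.0297 (SE, adjusted p = 0.117) on the TMM scale and at 0.01 on the FPKM scale. In that comparison 4 members passed with the GC and length trend removed, where 33.3% of genes did. PCBP4 was higher by 0.30 (adjusted p = 2.4e-05) and PCBP1 by 0.12 (adjusted p = 0.0051), and HNRNPK fell by 0.14 (adjusted p = 2.8e-04) and PCBP2 by 0.10 (adjusted p = 0.041).

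In Antisense_NC against Ctrl_NC, where 66.5% of genes passed, HNRNPK was lower by 0.18 (edgeR adjusted p = 8.6e-06), PCBP1 by 0.10 (adjusted p = 0.0088) and PCBP2 by 0.11 (adjusted p = 0.025) on the TMM scale. Of 15 alternatives, 4 lost the call of PCBP1 in the same direction and 4 turned its direction. For PCBP2 these numbers were 5 and 2, and for HNRNPK 1 and 2. On the FPKM scale the direction turned for these 3 genes, with log2 differences of 0.05 for HNRNPK, 0.13 for PCBP1 and 0.13 for PCBP2 with a pseudocount of 0.1, where the median of all genes lay at 0.24. The split of all called genes moved with it, from 4944 higher and 4631 lower to 6219 higher and 2576 lower. With the GC and length trend removed, where 64.5% passed, HNRNPK stood at -0.47 (edgeR adjusted p = 4.2e-18) and PCBP2 at -0.19 (adjusted p = 7.5e-05), and PCBP1 turned to 0.05 (adjusted p = 0.142). In CRLM1_NC against Antisense_NC, where 56.4% passed, PCBP4 was higher by 0.37 (edgeR adjusted p = 8.8e-07), PCBP1 by 0.19 (adjusted p = 3.8e-05) and HNRNPK by 0.12 (adjusted p = 0.0018), and on the FPKM scale HNRNPK turned to -0.04, while the split of all genes moved from 3860 higher and 4242 lower to 1921 higher and 5370 lower. With the trend removed, where 53% passed, HNRNPK stood at 0.33 (edgeR adjusted p = 1.1e-11) and PCBP4 at 0.28 (adjusted p = 2.4e-05), and PCBP1, at 0.06 (adjusted p = 0.129), did not pass. Of 15 alternatives for CRLM1_NC against Antisense_NC, 5 lost the call of PCBP1 and 1 that of PCBP4. For HNRNPK 1 lost the call and 2 turned the direction.

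Among hnRNPK libraries, no member passed between CRLM1_hnRNPK and Ctrl_hnRNPK, where 0.0137% of genes did. At an unadjusted p under 0.05 edgeR counted 0 members and 435 genes, and DESeq2 called 16 genes and no member. HNRNPK measured 658 ± 70.0 CPM in CRLM1_hnRNPK and 591 ± 88.7 CPM in Ctrl_hnRNPK (SD, n = 3), a log2 difference of 0.16 (edgeR adjusted p = 1.0). These are the groups whose equal numbers deviated together, and with the replicate number as a block 1023 genes passed in place of 2, with HNRNPK at 0.17 (adjusted p = 0.274), PCBP1 at 0.21 (adjusted p = 0.171) and PCBP4 at 0.25 (adjusted p = 0.166). Without the third libraries 16.5% of genes passed and no member did, and PCBP1 came nearest at 0.26 (adjusted p = 0.052).

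Between CRLM1_hnRNPK and Antisense_hnRNPK, where 31.4% of genes passed, PCBP1 was higher in CRLM1_hnRNPK by 0.78 (edgeR adjusted p = 0.022) and PCBP4 by 0.82 (adjusted p = 0.037). Both calls were lost without any 1 of the 3 Antisense_hnRNPK libraries, where the adjusted p was 0.098, 0.11 and 0.062 for PCBP1 and 0.11, 0.12 and 0.14 for PCBP4 without replicate 1, 2 and 3. With the replicate block PCBP4 stood at 0.77 (adjusted p = 0.065). Without the third libraries, where 52.7% passed, PCBP1 was higher by 0.66 (adjusted p = 3.9e-05), PCBP4 by 0.41 (adjusted p = 0.0044) and HNRNPK by 0.41 (adjusted p = 0.0036). With all libraries HNRNPK stood at 0.28 on the TMM scale and turned to -0.11 on the FPKM scale, where neither PCBP1 (0.38, limma adjusted p = 0.092) nor PCBP4 (0.39, adjusted p = 0.20) passed. With the GC and length trend removed, where 44.8% passed, 4 members were higher, HNRNPK by 0.85 (edgeR adjusted p = 7.7e-04), PCBP2 by 0.71 (adjusted p = 0.018), PCBP1 by 0.54 (adjusted p = 0.0052) and PCBP4 by 0.41 (adjusted p = 0.011). In Antisense_hnRNPK against Ctrl_hnRNPK, where 40.7% passed, no member did by edgeR, 2 had an unadjusted p under 0.05, and PCBP1 stood at -0.60 (adjusted p = 0.056). DESeq2 called 1 member, PCBP1, at -0.61 (adjusted p = 0.031). Without the third libraries, where 54.7% passed, PCBP1 fell by 0.38 (adjusted p = 0.014). With the trend removed, where 46.9% passed, edgeR called HNRNPK at -0.61 (adjusted p = 0.0023) and PCBP2 at -0.61 (adjusted p = 0.029).

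The base composition of the genes moved with the effect of the construct. Across the genes with a known exonic GC content, Spearman's rho between GC content and log2 fold change was -0.716 in Ctrl, -0.639 in CRLM1 and -0.718 in Antisense, as a description over genes that share libraries. Without the third library it was -0.748 in Ctrl and -0.767 in CRLM1. Among the negative controls it was -0.168 for CRLM1_NC against Ctrl_NC, -0.309 for Antisense_NC against Ctrl_NC and 0.297 for CRLM1_NC against Antisense_NC.

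The members span this range. HNRNPK has an exonic GC content of 41.4%, above that of 20.9% of the genes, and rose in Antisense. PCBP2 stands at 45.7%, PCBP1 and PCBP3 at 54.9% and PCBP4 at 60.2%, and these fell there. In Antisense with the trend removed, where 38.1% of genes passed, PCBP2 fell by 0.78 (edgeR adjusted p = 3.3e-05) and PCBP1 by 0.55 (adjusted p = 7.9e-04), and HNRNPK, at -0.23, was lower rather than higher. The values of HNRNPK with the trend removed were -0.07 (adjusted p = 0.730) in Ctrl and 0.30 (adjusted p = 0.244) in CRLM1. PCBP1 and PCBP2 were thus the members whose fall in Antisense was called with and without the trend, and the part of base composition in the rise of HNRNPK was not tested.

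**Figure D4:**
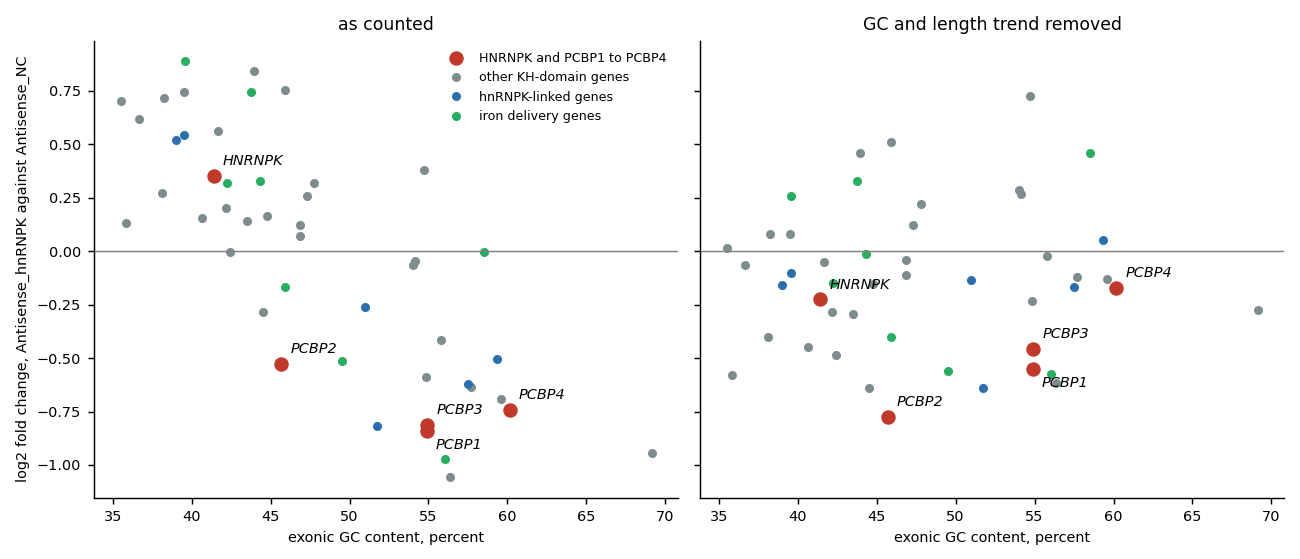
Log2 fold change of Antisense_hnRNPK against Antisense_NC against exonic GC content in percent, as counted (left) and with the GC and length trend removed (right), for the 5 members (red) and the other KH-domain, hnRNPK-linked and iron delivery genes. As counted, genes of low GC content lie mostly above 0 and genes of high GC content below it; with the trend removed all 5 members lie below 0, between -0.78 and -0.17.

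Genes that overlap or adjoin the members were read beside them, since the sources used here do not say whether the counting used strand. RMI1, a subunit of a DNA crossover-dissolving complex that starts next to HNRNPK on the other strand, rose by 0.82 in Antisense (edgeR adjusted p = 6.9e-05) and stood at 0.08 with the trend removed. HNRNPK-AS1 held 16 to 45 counts and did not pass (adjusted p = 0.493). PCBP1-AS1, which runs antisense across PCBP1, held 436 to 805 counts and fell by 0.51 (adjusted p = 5.6e-04). A lncRNA that overlaps PCBP2 on the same strand, RP11-793H13.8, held 5696 to 9991 counts, more than PCBP2 itself at 2328 to 3814, and fell by 0.61 (adjusted p = 7.2e-06). How many reads these genes share with PCBP1 and PCBP2 was not tested.

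The other KH-domain genes moved in both directions. Of 33 listed, 28 were tested in Antisense, where 9 rose and 6 fell, against 33.4% of all genes rising and 30.5% falling, and their median log2 fold change was 0.15, against 0.04 over all genes. IGF2BP3, an mRNA-binding oncofetal protein, rose by 0.84 (edgeR adjusted p = 9.6e-06), ASCC1 by 0.75 and PNPT1, a mitochondrial RNA-degrading enzyme, by 0.75. The splicing factor SF1 fell by 1.06 (adjusted p = 4.9e-07), MEX3D by 0.94 and the mRNA decay factor KHSRP by 0.69. With the trend removed 5 rose and 9 fell. PNPT1 then stood at 0.08 (adjusted p = 0.591) and KHSRP at -0.13 (adjusted p = 0.215), and MEX3D at -0.27 (adjusted p = 0.018). In Ctrl and CRLM1 with all libraries 0 of 28 passed, and without the third library 14 rose and 6 fell in Ctrl, where 29.6% of all genes rose and 29.9% fell, and 18 rose and 6 fell in CRLM1, where 29.5% rose and 29.1% fell.

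Of 7 genes linked to hnRNPK in textbooks, 6 were tested and all passed in Antisense, 2 higher and 4 lower, where 33.4% of all genes rose and 30.5% fell. MDM2 rose by 0.54 (edgeR adjusted p = 6.0e-05) and the cap-binding factor EIF4E by 0.52. MYC, whose promoter CT element hnRNPK binds, fell by 0.82 (adjusted p = 1.4e-05), from 461 ± 3.16 to 263 ± 49.1 CPM (SD, n = 3). CDKN1A, which encodes a cyclin-dependent kinase inhibitor, fell by 0.62 (adjusted p = 1.2e-05) and the kinase gene SRC by 0.51. With the trend removed only MYC of the 6 passed, at -0.64 (adjusted p = 0.0013), and the directions of MDM2, EIF4E and SRC turned. With all libraries none passed in Ctrl or CRLM1, and without the third library 2 rose and 4 fell in Ctrl and 3 rose and 3 fell in CRLM1, where the shares of all genes were those given for the KH-domain genes.

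The iron genes were read because PCBP1 and PCBP2 deliver iron to ferritin. Of 10 listed, 8 were tested, and in Antisense 4 rose and 2 fell, where 33.4% of all genes rose and 30.5% fell. Both ferritin genes fell, FTL by 0.97 (edgeR adjusted p = 5.8e-06), from 3174 ± 65.0 to 1630 ± 309 CPM (SD, n = 3), and FTH1 by 0.51 (adjusted p = 1.4e-04), from 3026 ± 105 to 2131 ± 138 CPM. NCOA4, the receptor for ferritin breakdown, rose by 0.75 and the transferrin receptor gene TFRC by 0.32 (adjusted p = 0.0041). HMOX1, the heme-degrading enzyme, stood at -0.00 (adjusted p = 0.977). With the trend removed FTL, FTH1 and NCOA4 still passed in the same direction, while TFRC turned to -0.15 and HMOX1 to 0.46 (adjusted p = 0.0051). With all libraries 0 of 8 passed in Ctrl and in CRLM1, and without the third library 4 rose and 3 fell in each, where 29.6% of all genes rose and 29.9% fell in Ctrl and 29.5% and 29.1% in CRLM1.

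Across the 18 libraries, 8435 genes were ranked by the correlation of their level with that of HNRNPK. Among the 5 most alike were BTN2A2 (r = 0.96), ARPC3 (r = 0.96) and RP11-761B3.1 (r = 0.95), and the 3 most opposite were SMO (r = -0.95), CTDSP2 (r = -0.94) and KCTD2 (r = -0.94). ARPC3, a subunit of the actin-nucleating Arp2/3 complex, measured 65.8 CPM in Ctrl_NC and 88.1 CPM in Ctrl_hnRNPK on average, and SMO, the Hedgehog signal transducer, 12.7 and 8.2 CPM. PCBP1 stood at -0.51, PCBP2 at -0.58 and PCBP4 at -0.49, within the 5th to 95th percentile of all genes from -0.78 to 0.76. Without the third Ctrl_hnRNPK and CRLM1_hnRNPK libraries RP11-761B3.1 (r = 0.98) and CTDSP2 (r = -0.97) stood at rank 3 of their directions, while BTN2A2 (r = 0.96) moved to rank 16, ARPC3 (r = 0.96) to 15, SMO (r = -0.95) to 27 and KCTD2 (r = -0.94) to 45. PCBP1 then stood at -0.59, PCBP2 at -0.72 and PCBP4 at -0.63. All these values share the libraries and the difference between constructs. Within the 9 negative-control libraries PCBP1 stood at 0.47, PCBP2 at 0.44 and PCBP4 at 0.38, and within the 9 hnRNPK libraries at 0.03, -0.21 and -0.14.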

How the data were processed

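The 18 RNA-seq libraries (151 nt paired-end, KAPA RNA HyperPrep) were grouped by their labels, 3 per group. The authors aligned reads with TopHat2 to GRCh38, allowing up to 4 mismatches and keeping uniquely mapped reads; per the submitters' processing notes bcl2fastq and edgeR were also used. The annotation was Gencode release 23, stated for a public data set that the study says was processed the same way, and the strand setting of the counting is not given in the sources used here. They deposited raw counts per gene and, in a second table, FPKM values. Columns not used numbered 0, and no entry lacked a symbol. Depth was 19732681 to 27039520 counts.

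From the counts, edgeR 4.0.16 (R 4.3.3) was run with TMM scaling, filterByExpr and the robust quasi-likelihood F-test on the 6 libraries of each of 9 comparisons, and on 12 libraries for 3 differences of effects, with p-values adjusted by Benjamini-Hochberg across every gene in the fit and a threshold of 0.05. All 5 members passed the filter in each. Ratios were tested by exact permutation (scipy 1.17.1). The edgeR fit was tried on simulated counts with known changes. In Ctrl it recovered 3% of log2 changes of 0.5 and 58% of changes of 1, against 74% and 100% in Antisense. The simulation changed 100 genes by each size and drew the counts of each gene independently. In the data 33.4% of genes rose and 30.5% fell in Antisense, so these rates need not hold there or in Ctrl. Alternatives were RLE scaling, DESeq2 1.42.0, no filter, 1 fit of all libraries, the replicate block, removal of a GC and length trend (splines of 5 degrees of freedom), limma 3.58.1 on log2 FPKM with pseudocounts of 0.1 and 1, and leaving out libraries. Fold changes from FPKM are on the log2(FPKM + pseudocount) scale, which understates changes of low genes such as PCBP3.

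Equal replicate numbers deviated together only for CRLM1_hnRNPK and Ctrl_hnRNPK, with correlations of deviations from the group means of 0.485, 0.379 and 0.658. Replicate 2 correlated more highly with another number (0.414) than with its own, so the numbers separate replicate 3 rather than replicates 1 and 2, and the pairing comes from the data, not from a label. Sequences, coordinates and GC content are from Gencode release 44 on GRCh38. Exonic GC content was known for at least 98.6% of the genes in each fit.

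The text names the 5 members, genes that overlap or adjoin them, their processed copies, up to 3 of the largest rises and falls among KH-domain genes passing the threshold at a mean of at least 1 CPM, the tested hnRNPK-linked genes, the iron genes FTL, FTH1, NCOA4, TFRC and HMOX1, and the 5 genes most like HNRNPK and 3 most unlike it at a mean of at least 10 CPM. Some genes that this rule names are not reported here. The members and lists were chosen with earlier results of these data known.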

Additional observations from a re-analysis of the deposited data

Results flagged for a closer look

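For MYC, a gene linked to hnRNPK, the effect of the hnRNPK construct differed between the CRLM1 and Antisense backgrounds by the test of the difference itself. The effect was 1.07 ± 0.207 (SE, log2) higher in CRLM1 than in Antisense (edgeR adjusted p = 0.029), where 1.12% of genes passed. MYC was flagged because it alone among the members and listed genes passed such a test with all libraries. The differences from Ctrl did not pass with all libraries, at 0.47 for CRLM1 (edgeR adjusted p = 0.9998) and -0.60 for Antisense (edgeR adjusted p = 0.234). In both comparisons 0% of genes passed. Within CRLM1 the effect itself was 0.26 (edgeR adjusted p = 0.558). MYC measured 808.892, 816.363 and 772.605 CPM in CRLM1_NC against 903.849, 841.714 and 1073.41 CPM in CRLM1_hnRNPK. It measured 464.75, 460.024 and 458.748 CPM in Antisense_NC against 257.79, 216.718 and 314.507 CPM in Antisense_hnRNPK. All 3 hnRNPK libraries lay above the controls in CRLM1, and all 3 lay below them in Antisense. Without the third hnRNPK library of CRLM1 the groups kept these positions. The share of all genes that separated in this way is not given here. Without the third hnRNPK libraries of both groups the difference between CRLM1 and Antisense was 1.13 (adjusted p = 4.2e-09). Without those of the groups compared, the differences from Ctrl were 0.51 for CRLM1 (edgeR adjusted p = 0.0011) and -0.64 for Antisense (edgeR adjusted p = 5.5e-04). The call between CRLM1 and Antisense with all libraries was lost without either of the first 2 Antisense_hnRNPK libraries. It was also lost without any 1 NC library of the CRLM1 or Antisense background. MYC then stood at 0.93 to 1.10, with adjusted p from 0.090 to 0.11.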

How the results depend on the processing

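With the GC and length trend removed, these log2 values changed sign. With the construct, HNRNPK went to -0.074 in Ctrl and -0.23 in Antisense and PCBP4 to 0.017 in Ctrl. In Antisense_NC against Ctrl_NC, PCBP1 went to 0.054 and PCBP4 to 0.022. PCBP3 went to -0.027 in CRLM1_NC against Antisense_NC and 0.025 in Antisense_hnRNPK against Ctrl_hnRNPK. The differences of effects went to -0.057 for PCBP4 (CRLM1 minus Ctrl) and -0.15 for HNRNPK (Antisense minus Ctrl). In Antisense with the construct SRC went to 0.054, EIF4E to -0.16, MDM2 to -0.10, HMOX1 to 0.46 and TFRC to -0.15. The calls that the trend removal added or took away among the members stand beside the comparisons. The cause was not tested.

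With the replicate block and the trend removed together, the values in the same order were -0.076 and -0.23 for HNRNPK, 0.013 for PCBP4, 0.054 for PCBP1, 0.023 for PCBP4, -0.069 and 0.022 for PCBP3, -0.057 for PCBP4 and -0.14 for HNRNPK, then 0.056 for SRC, -0.17 for EIF4E, -0.10 for MDM2, 0.44 for HMOX1 and -0.15 for TFRC. With the replicate block alone PCBP3 went to -0.020 in CRLM1_NC against Antisense_NC, and 1023 genes in place of 2 passed between CRLM1_hnRNPK and Ctrl_hnRNPK. Same-numbered libraries of the other 8 comparisons correlated at -0.151 to 0.0988 in their deviations and share only a number.

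By limma on FPKM with pseudocounts of 0.1 and 1, PCBP2 went to 0.026 and 0.025 and HNRNPK to 0.014 and 0.014 in CRLM1_NC against Ctrl_NC. In Antisense_NC against Ctrl_NC, PCBP2 went to 0.13 and 0.12, PCBP4 to 0.13 and 0.12, HNRNPK to 0.054 and 0.054 and PCBP1 to 0.13 and 0.13. In CRLM1_NC against Antisense_NC, PCBP2 went to -0.10 and -0.10 and HNRNPK to -0.041 and -0.040. In Antisense_hnRNPK against Ctrl_hnRNPK, PCBP2 went to 0.039 and 0.037 and HNRNPK to 0.27 and 0.27. HNRNPK went to -0.11 and -0.11 in CRLM1_hnRNPK against Antisense_hnRNPK and to -0.071 and -0.071 for the effect in CRLM1 minus Antisense. PCBP4 went to -0.085 and -0.084 for CRLM1 minus Ctrl, and HMOX1 to 0.23 and 0.22. In 1 fit of all 18 libraries PCBP3 stood at -0.0043 in CRLM1_NC against Antisense_NC, PCBP4 at -0.024 for CRLM1 minus Ctrl and HMOX1 at 0.00048. Without the third hnRNPK libraries HNRNPK went to -0.13 for Antisense minus Ctrl.

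Leaving out 1 library at a time, HNRNPK with the construct ranged from 0.21 to 0.44 in Ctrl and from 0.47 to 0.65 in CRLM1, and passed without the third hnRNPK library. PCBP3 ranged from -0.27 to 0.41 in CRLM1_NC against Ctrl_NC, from -0.045 to 0.36 in Antisense_NC against Ctrl_NC, from -0.44 to 0.25 in CRLM1_NC against Antisense_NC, and from -0.54 to 0.15 for the effect in CRLM1 minus Antisense. In CRLM1_hnRNPK against Ctrl_hnRNPK, PCBP1 ranged from -0.021 to 0.48, PCBP2 from -0.13 to 0.31 and PCBP4 from -0.10 to 0.61. For CRLM1 minus Ctrl, PCBP1 ranged from -0.040 to 0.41, PCBP2 from -0.023 to 0.37 and PCBP4 from -0.30 to 0.35. HNRNPK ranged from -0.11 to 0.11 for Antisense minus Ctrl, and HMOX1 from -0.20 to 0.089.

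Genes passing in Antisense with the construct numbered 9268, against 5519 with the trend removed, where 2411 rose and 3108 fell. With no filter 253 passed in Ctrl in place of 0, and with the trend removed 52 passed in CRLM1 in place of 0. In 1 fit of all libraries 102 passed for CRLM1_NC against Ctrl_NC in place of 4960, 5093 for Antisense_NC against Ctrl_NC in place of 9575, and 2357 for CRLM1_NC against Antisense_NC in place of 8102. For CRLM1_hnRNPK against Ctrl_hnRNPK 2 passed, against 16 by DESeq2, 24 with no filter, 15 with the trend removed and 55 in 1 fit, and for CRLM1_hnRNPK against Antisense_hnRNPK 4618 against 7060 in 1 fit. For the effect in CRLM1 minus Antisense 171 passed, against 1025 by DESeq2, 906 with no filter, 1907 with the trend removed, and 328 and 773 by limma with the 2 pseudocounts. For Antisense minus Ctrl 0 passed, against 271, 391, 252, 10 and 213. By limma with a pseudocount of 0.1 the called genes split into 2831 higher and 1491 lower for CRLM1_NC against Ctrl_NC (2449 and 2511 by edgeR), 4772 and 1232 for Antisense_hnRNPK against Ctrl_hnRNPK (3101 and 2950) and 894 and 3899 for CRLM1_hnRNPK against Antisense_hnRNPK (2184 and 2434). Of 300 alternative values for the 20 other named genes, 262 kept their direction and side of the threshold. PCBP3, at 9 to 35 counts, is limited by depth.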
